A study of Mus musculus with 3 samples.

Results

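Ephrins and their Eph receptors were described here by the FOXF1 binding sites at 10 of their genes in the fetal mouse lung. The genes are those of the ligands Efna1, Efna5 and Efnb2 and of the receptors Epha2, Epha3, Epha4, Epha7, Ephb2, Ephb3 and Ephb4. All 10 were found in the RefSeq gene table of GRCm38, the assembly that mm10 names, among 21887 protein-coding genes. A binding site here is a shared site: a summit of replicate 1 and a summit of replicate 2 that were each other's nearest and lay at most 100 bp apart. A site belonged to a gene when it lay inside it, or within 100 kb of it with an end of that gene as the nearest end of any protein-coding gene. By this rule 62 of the 51013 shared sites belonged to the 10 genes.

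FOXF1 is a forkhead transcription factor of the lung mesenchyme and endothelium. It was precipitated with its bound DNA from whole lungs of wildtype C57BL/6 embryos at embryonic day 18.5, in 2 biological replicates, with 3 lungs pooled in each. A 2% input DNA sample, which saw no antibody, was the control for peak calling. There is 1 group and no contrast between conditions, and the lists hold no expression level, so nothing here says in which cells of the lung a site was bound or whether the gene was active.

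Ephrins are ligands held on the cell surface, and the receptors that bind them are tyrosine kinases of the neighbouring cell, so signalling needs contact and can run into both cells. A-type ephrins are held in the membrane by a lipid anchor and bind mainly EphA receptors, while B-type ephrins span the membrane and bind mainly EphB receptors and also EphA4. In vessels, Efnb2 is known as a mark of arteries and its receptor gene Ephb4 as a mark of veins, and the pair is needed to form separate arterial and venous beds.

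The lists held 107378 summits in replicate 1 and 61172 in replicate 2 on the nuclear chromosomes, and neither the labels nor the lists used here give the read depth behind them. Each summit has a score, the authors' −log10 significance of the peak against the input. Over all shared sites the median score was 44.1 in replicate 1 and 19.1 in replicate 2. Scores depend on depth, so their size was not compared between replicates, and percentile ranks were taken among all shared sites within each replicate. To order sites, the mean of both scores was used, in which replicate 1 weighs more because its scores are higher. As a check of the tissue, sites were counted at marker genes. At least 1 was found at 7 of 7 endothelial, 5 of 5 mesenchymal and 5 of 5 lung epithelial markers. So it was at 4 of 5 neuronal genes and at 60.7% of protein-coding genes, so presence of a site did not set lung markers apart. Their medians were 13 sites per endothelial marker, 4 per mesenchymal marker, 1 per lung epithelial marker and 3 per neuronal gene. The median over all protein-coding genes was 1. By mean score, the highest site of each gene ranked at percentiles 87.1 to 99.9 in endothelial and 46.6 to 99.9 in mesenchymal markers. The ranges were 1.61 to 98.5 in lung epithelial markers and 91.4 to 97.8 in the neuronal genes with a site.

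At 7 of the 10 genes a shared site lay within 1 kb of an annotated transcription start, against 43.1% of the 17492 protein-coding genes that have a start in the RefSeq promoter table. These were Efnb2, Epha2, Epha3, Epha4, Epha7, Ephb3 and Ephb4, and in each the site closest to the start lay between 66 bp upstream and 53 bp downstream of it. The promoters of 5 of them held that site within the window from 250 bases before to 50 bases after the start, and their sequences are shown because the summits fall on them. Each line gives 280 bases 5′ to 3′ from RefSeq (GRCm38.p6), 250 before the start and 30 from the start on, with the bases between the replicate 1 and the replicate 2 summit in capitals.
Efnb2, chr8:8661213-8661492, minus strand: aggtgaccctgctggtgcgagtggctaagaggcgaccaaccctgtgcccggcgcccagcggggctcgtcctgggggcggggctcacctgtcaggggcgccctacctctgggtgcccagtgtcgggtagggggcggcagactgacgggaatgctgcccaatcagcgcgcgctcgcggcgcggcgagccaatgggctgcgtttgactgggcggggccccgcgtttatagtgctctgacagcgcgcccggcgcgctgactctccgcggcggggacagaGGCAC
Ephb4, chr5:137349859-137350138, plus strand: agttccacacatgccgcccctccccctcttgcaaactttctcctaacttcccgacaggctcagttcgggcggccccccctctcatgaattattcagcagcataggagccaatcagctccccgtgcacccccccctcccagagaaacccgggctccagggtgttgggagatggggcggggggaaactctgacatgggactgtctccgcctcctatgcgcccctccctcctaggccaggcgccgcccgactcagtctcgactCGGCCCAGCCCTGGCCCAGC
Ephb3, chr16:21204545-21204824, plus strand: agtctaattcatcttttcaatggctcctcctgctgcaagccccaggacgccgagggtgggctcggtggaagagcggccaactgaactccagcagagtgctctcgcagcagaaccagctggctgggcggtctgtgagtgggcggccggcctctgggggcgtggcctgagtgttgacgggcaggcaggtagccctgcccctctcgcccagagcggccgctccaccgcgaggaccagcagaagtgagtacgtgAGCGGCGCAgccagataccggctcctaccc
Epha4, chr1:77515059-77515338, minus strand: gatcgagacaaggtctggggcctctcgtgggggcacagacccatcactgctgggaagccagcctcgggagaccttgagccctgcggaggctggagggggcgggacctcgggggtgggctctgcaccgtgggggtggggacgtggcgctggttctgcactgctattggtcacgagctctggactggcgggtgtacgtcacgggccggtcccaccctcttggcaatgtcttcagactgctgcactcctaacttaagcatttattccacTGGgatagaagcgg
Epha3, chr16:63864146-63864425, minus strand: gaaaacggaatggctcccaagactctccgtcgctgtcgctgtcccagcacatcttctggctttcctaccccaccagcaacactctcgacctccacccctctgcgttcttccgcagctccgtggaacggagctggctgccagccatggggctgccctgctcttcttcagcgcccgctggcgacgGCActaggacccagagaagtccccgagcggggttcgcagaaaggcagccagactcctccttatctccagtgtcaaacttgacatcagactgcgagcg
In Efnb2 the summits lay 25 and 55 bp past the start, so the capitals run on beyond the printed end. In Ephb4 they lay 31 bp past the start in replicate 1 and 10 bp past it in replicate 2, and the capitals again reach the printed end. In Ephb3 they lay 8 bp past the start and on it, in Epha4 16 and 18 bp past it, and in Epha3 65 and 67 bp upstream of it.

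No forkhead motif was found in these windows. The letters searched were TGTTTAC and TGTTTAT on both strands (GTAAACA and ATAAACA), over the full 300 bases. None of the 12 promoter windows of the 10 genes held one, where Efna1 and Epha7 have 2 windows each. Over all 21263 windows of protein-coding genes, 6.73% held one, and the share was 6.71% among the 4351 windows with a shared site in them. The ETS core TTCCGG or CCGGAA was in 1 of the 12 windows, against 18.7% of all windows. This was the window of Ephb2, which held no shared site. Over all windows with a shared site the share was 36.8%, and none of the windows of the 10 genes with a shared site held the core. The E-box CACGTG and the AP-1 letters TGANTCA were in none, against 7.84% and 6.99% of all windows. No match says only that these letters are not in these windows.

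These promoters were rich in G and C. The median over the 12 windows was 65.5% G and C and 21.5 CG dinucleotides, against 56.3% and 13 over all windows, and 62.7% and 24 over windows with a shared site. Within the family the Efnb2 window was among the richest, with 72.3% G and C and 35 CG dinucleotides. That of Ephb4 had 64.7% and 14, that of Epha2 54.7% and 10, and that of Efna5, which held no site, had 73.3% and 38. Sites at the start were thus found at genes from the low to the high end of this range.

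The number of sites differed widely between the genes. Epha4 had 19 and Epha3 12, Efna5, Efnb2, Epha2 and Ephb3 had 6 each, Ephb4 had 3, Epha7 and Ephb2 had 2 each, and Efna1 had none. At least 1 site was present at 9 of 10, against 60.7% of protein-coding genes. At least 6 were present at 6 of 10, against 10.7%, and at least 12 at 2 of 10, against 3.5%. Both limits equal counts that genes of this list have, and the genes were chosen with earlier results of these data known. The median was 6 sites per gene, against 1 over all protein-coding genes. These are descriptions with no test, and 5 of the 10 genes are 148 to 321 kb long and so offer more room for a site than a short gene does.

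**Figure D1:**
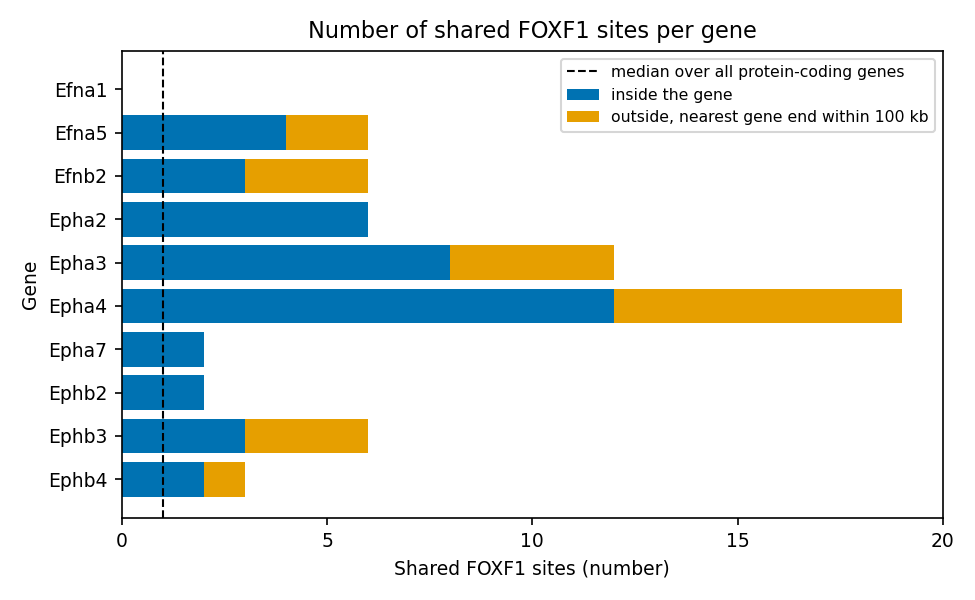
Number of shared FOXF1 sites (x axis) at each of the 10 genes (y axis), split into sites inside the gene and sites outside it, with the median over all protein-coding genes as a dashed line. Epha4 has 19 and Epha3 has 12, the other genes have 6 or fewer, and Efna1 has none.

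Most of the 62 sites, 42 (67.7%), lay inside their gene, against 63.3% over all assignments of shared sites to protein-coding genes. The exact Clopper-Pearson 95% interval was 54.7 to 79.1%, for counting error only. It takes sites as independent, although they share genes and libraries. Only 9 lay within 1 kb of a start of their own gene (14.5%). Over all shared sites 14.7% lay within 1 kb of the start of any protein-coding gene, a wider measure. A further 34 lay deeper inside the gene, 10 upstream of it beyond 1 kb and 9 downstream of it. Exons and introns are not told apart in the gene table. Length and number of sites did not go together throughout: Ephb2 spans 189 kb and Epha7 154 kb, with 2 sites each, while Epha2 spans 28.2 kb and held 6 inside. Counted per 100 kb of gene, sites inside were densest at Epha2 (21.3), Ephb3 (16.1), Ephb4 (8.19) and Epha4 (8.11). They were lowest at Efna5 (1.44), Epha7 (1.30) and Ephb2 (1.06), apart from Efna1, which had none. The median over protein-coding genes was 0. With 100 kb on either side and all shared sites there counted, that median was 2.47 per 100 kb. Efna5 (2.09), Epha3 (2.30), Ephb2 (1.03) and Epha7 (0.56) lay under it. Ephb3 (2.74) lay close above it, and the other genes lay higher.

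**Figure D2:**
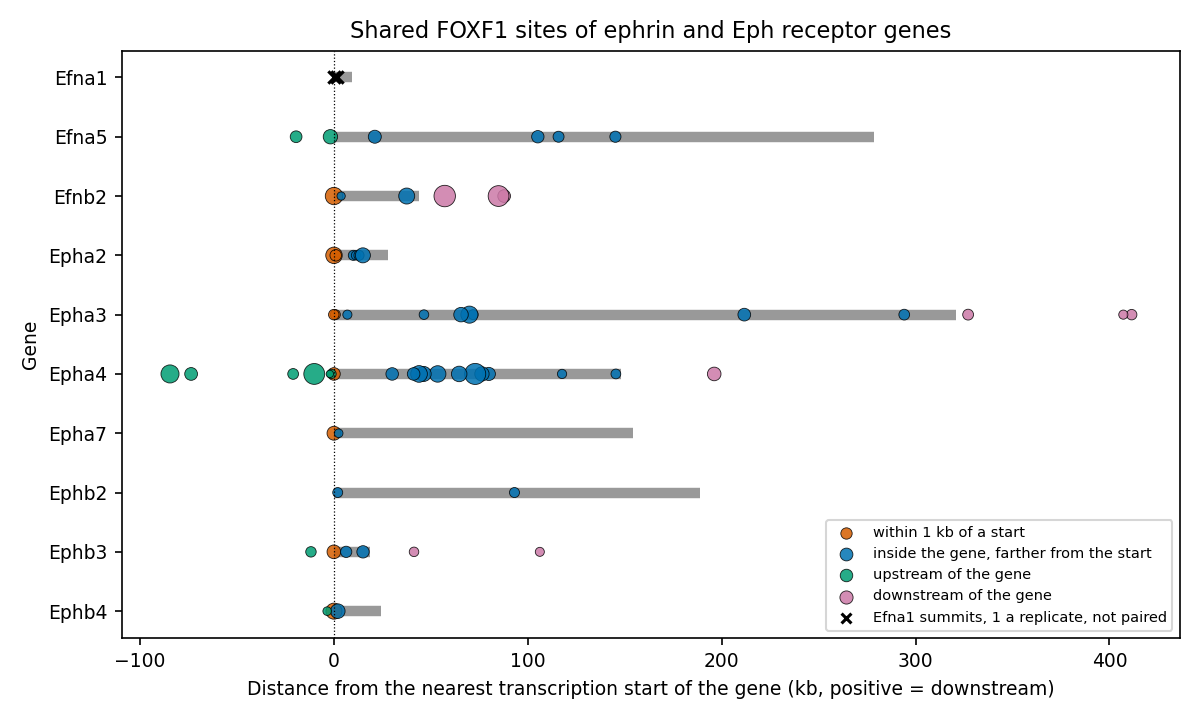
Position of each shared site as its distance in kb from the nearest transcription start of its gene (x axis), 1 line per gene (y axis), with grey bars for the gene's span and point area growing with the mean score of both replicates. Efnb2 has its 2 largest points downstream of the gene, and Epha4 has 9 sites in a single stretch of 49.9 kb inside the gene. The crosses at Efna1 are summits of single replicates that were not paired.

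Among the ligands, Efnb2 carried the highest sites. It spans chr8:8617235-8661242 on the minus strand. Its highest site, at position 8604079, lay 13.2 kb downstream of the gene, with a score of 164.2 in replicate 1 and 80.7 in replicate 2. The second, at 8576308, lay 40.9 kb downstream, with 151.4 and 77.2. Both ranked in the highest 5% of shared sites by mean score (percentiles 96.3 and 95.3). The site at the start, at 8661202, followed with 90.8 and 63.4, and a site inside the gene at 8623683 had 87.0 and 40.5. The last downstream site, at 8573425, had 49.3 and 23.5, and the site 3731 bp into the gene was low in both replicates, with 13.7 and 5.70. Thus 5 of the 6 Efnb2 sites lay above the median of all shared sites by mean score. They lay downstream of the gene, at the start and inside the gene. The other 5 shared sites within 100 kb of Efnb2 were not assigned to it, since an end of Arglu1, the next gene upstream, was nearer.

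The 100 kb limit ended the count in a wide stretch without protein-coding genes downstream of Efnb2. The nearest site beyond it lay 118 kb from the gene and had scores of 34.5 and 7.78. In all 29 shared sites lay between 118 and 819 kb downstream with Efnb2 as the nearest protein-coding end, searched up to 1000 kb. The highest of them, at position 8362397 and 255 kb away, had 176.4 and 93.1, above every counted Efnb2 site in both replicates. Epha4 had 20 such sites, 16 downstream and 4 upstream. The highest of these, at position 77227165 and 140 kb downstream of Epha4, had 229.7 and 110.1, above every counted site of the 10 genes in both replicates. Efna5 had 4 and Epha7 had 2, and the other members had none. The farthest site that was counted, at Epha3, lay 90.9 kb away.

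Efna5 had 6 sites of middling score. It encodes an A-type ephrin and spans chr17:62602957-62881317 on the minus strand. Scores ran from 29.6 to 65.5 in replicate 1 (median 41.7) and from 12.7 to 33.3 in replicate 2 (median 19.5). The highest, at position 62883109, lay 1792 bp upstream of the start, with 65.5 and 33.3, and was also the closest to the start. The second, at 62860213, lay 21.1 kb into the gene, with 58.2 and 19.2. The remaining sites inside lay 105 to 145 kb past the start, and 1 lay 19.5 kb upstream. None of the 6 reached the highest 10% of shared sites.

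Efna1 had no shared site, yet it held a high summit in each replicate. It encodes an A-type ephrin, a ligand of Epha2, and spans chr3:89271730-89280951 on the minus strand. In replicate 1 a summit with a score of 128.0 lay inside it at position 89278291, and in replicate 2 one with 77.2 at 89279587. Each was above 96.1% and 96.0% of the summits of its own list. They lay 1296 bp apart, beyond the 100 bp allowed, so they were not paired. The replicate 2 summit was 58 bp past the second annotated start of Efna1 and the replicate 1 summit 1354 bp past it. With summits paired up to 2000 bp apart, a limit chosen after these values were seen, Efna1 had 1 site. Peak widths were not analysed here, so whether both summits belong to 1 broad bound region was not tested.

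The surroundings of Efna1 were full of sites that fell to its neighbours. Within 100 kb of the gene lay 18 shared sites, or 8.60 per 100 kb, a density above that of 97.6% of protein-coding genes. The closest, at position 89270486, lay 1244 bp beyond the gene, inside the sugar transporter gene Slc50a1, with scores of 41.2 and 41.8. Of the A-type ephrin genes next to it, Efna3 held 2 sites and Efna4 held 1. Replicate 1 had 3 summits that belonged to Efna1 and replicate 2 had 2, so the count of 0 is one of pairs within 100 bp and not of summits.

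Among the EphA receptors, Epha4 had the highest number of sites of the 10 genes. Epha4, which binds both A-type and B-type ephrins, spans chr1:77367182-77515107 on the minus strand. Its 19 sites exceeded those of 98.7% of protein-coding genes, a count not adjusted for gene length. The density over the gene and 100 kb on either side was 5.46 per 100 kb, above that of 84.8% of protein-coding genes. Scores ran from 8.07 to 157.8 in replicate 1 (median 55.8) and from 3.38 to 78.9 in replicate 2 (median 27.8), and 14 of 19 lay above the median of all shared sites by mean score.

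The highest Epha4 sites were far from the start. The site at 77442207, 72.9 kb into the gene, had 156.6 in replicate 1 and 78.9 in replicate 2. The site at 77525222, 10.1 kb upstream of the start, had 157.8 and 72.9. Their order by score was opposite in the replicates, and both were in the highest 5% of shared sites by mean score. The next, at 77599627 and 84.5 kb upstream, had 125.6 and 42.9. The site at the start, at 77515071, was lower, with 42.2 and 30.3. Between 77435165 and 77485024, a span of 49.9 kb inside the gene, lay 9 shared sites, and as many within 50 kb were found at 1.77% of protein-coding genes. Replicate 1 scores in this cluster ran from 48.9 to 156.6 and replicate 2 scores from 15.2 to 78.9.

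Epha3 had 12 sites, most of them low. It encodes a receptor for A-type ephrins and spans chr16:63543532-63864175 on the minus strand, the longest of the 10 genes at 321 kb. Median scores were 30.7 in replicate 1 and 11.1 in replicate 2, both under the medians of all shared sites. Above the median of all shared sites by mean score were 3 of the 12. The site at 63794271, 69.9 kb into the gene, had 100.8 and 47.5, its neighbour at 63798607 had 71.5 and 29.4, and the one at 63652492, deeper in the gene, had 47.9 and 25.3. The site closest to the start, at 63864241, had 27.9 and 15.5. Although its count was high, the density over the gene and 100 kb on either side was 2.30 per 100 kb, near the 2.47 that was the median over protein-coding genes.

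Epha2 held all of its 6 sites inside the gene. It encodes a receptor of epithelial and endothelial cells that binds A-type ephrins, and spans chr4:141301221-141329384 on the plus strand. The site at the start, at 141301274 and 53 bp past it, was the highest, with scores of 85.9 and 50.4. The second, at 141316173 and 15.0 kb in, had 75.9 and 34.0. The other 4 were lower in both replicates, from 19.9 to 36.2 in replicate 1 and from 8.96 to 20.5 in replicate 2.

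Epha7, a receptor for A-type ephrins best known from the nervous system, had 2 sites, both near its start. The first, at chr4:28813195 and 50 bp past the nearer of its 2 annotated starts, had 49.9 in replicate 1 and 41.8 in replicate 2. The second, at 28815590, had 10.8 and 12.7. No other summit of either replicate belonged to Epha7, so the rest of this long gene held none, although replicate 1 had 142 summits at the 10 genes.

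Among the EphB receptors, Ephb4 had few but fairly high sites. It encodes the main receptor of Efnb2 in veins and spans chr5:137350109-137374522 on the plus strand. The site at the start, at 137350129, had 81.4 in replicate 1 and 47.0 in replicate 2. A second, at 137352110 and 2001 bp into the gene, had 62.0 and 40.9, and one 3447 bp upstream had 16.3 and 6.53. The 2 sites inside Ephb4 lay above the median of all shared sites (percentiles 80.9 and 72.6 by mean score), and neither reached the highest 10%. Efnb2 thus had sites in the highest 10% and Ephb4 had none. Only 2 of the 10 genes, Efnb2 and Epha4, had one, against 12.3% of protein-coding genes.

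Ephb3 and Ephb2 had lower sites. Ephb3, at chr16:21204620-21223309 on the plus strand, had its highest site at the start (21204799), with 53.9 and 34.7, and its second at 21219812, 15.0 kb in, with 46.0 and 21.9. Its other 4 sites had 16.9 to 36.6 in replicate 1 and 6.54 to 19.8 in replicate 2. Ephb2, at chr4:136647536-136836326 on the minus strand, had 2 sites, both under the median of all shared sites in each replicate. The one at 136742868, 93.1 kb into the gene, had 32.2 and 6.13, and the one at 136834042, 1970 bp past the start, had 27.1 and 10.2.

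**Figure D3:**
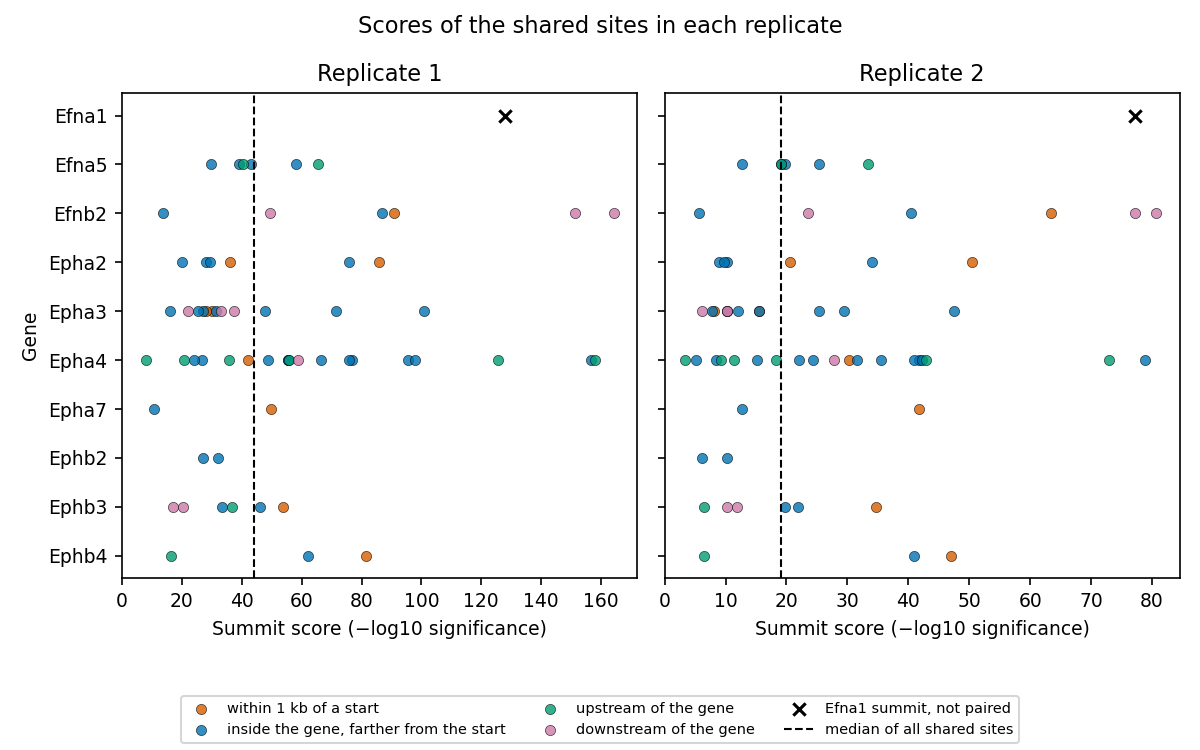
Summit score, the authors' −log10 significance (x axis, 1 panel per replicate with its own scale), of each shared site at the 10 genes (y axis), coloured by position, with the median of all shared sites as a dashed line. Efnb2 and Epha4 reach 164.2 and 157.8 in replicate 1, both Ephb2 sites lie left of the line, and the crosses are the unpaired Efna1 summits at 128.0 and 77.2.

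Over all 62 sites, the scores were close to those of shared sites in general. Their median was 42.6 in replicate 1 and 19.8 in replicate 2, against 44.1 and 19.1 over all shared sites, and 32 of 62 (51.6%) lay above the median by mean score. In the highest 10% were 4 sites (6.45%), 2 each at Efnb2 and Epha4. Receptor genes held 50 sites over 7 genes and ligand genes 12 over 3, with a median of 6 in each. The 4 EphA receptor genes had a median of 9 and the 3 EphB receptor genes a median of 3. This holds for the listed genes only. Of the other receptor genes, Epha5, Epha6, Epha8 and Epha10 had no site and Epha1 had 4, while Ephb1 had 9 and Ephb6 had 1. Gene length was not taken into account: Epha3 spans 321 kb and Ephb3 18.7 kb.

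The replicates ranked the sites of these genes in a similar order. Spearman's rank correlation of the scores was 0.900 across the 62 sites, against 0.883 across all 51013. Sites share the libraries and are not independent, so no p is given. The median distance between the paired summits was 13 bp, as over all shared sites. The widest pair, at Epha4, lay 100 bp apart, and the closest summits that were left unpaired, at Efnb2, 101 bp apart.

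Sites at the start of these genes ranked higher in replicate 2 than in replicate 1. Of the 9 sites within 1 kb of a start, 8 had a higher percentile rank in replicate 2, with a median difference of 12.8 percentile points (range -14.0 to 23.6). The exception was the Epha3 site 747 bp past the start. At Epha7 the rank went from the 56.3 percentile in replicate 1 to the 80.0 percentile in replicate 2, and at Epha4 from 47.4 to 68.0. Of the other 53 sites, 21 ranked higher in replicate 2, with a median difference of -0.54. The same held over the whole series: 91.1% of the 7486 shared sites within 1 kb of a protein-coding start ranked higher in replicate 2, with a median difference of 16.3 points, against 36.7% of the other 43527. The pattern was therefore not particular to these genes. What it follows from was not tested.

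**Figure D4:**
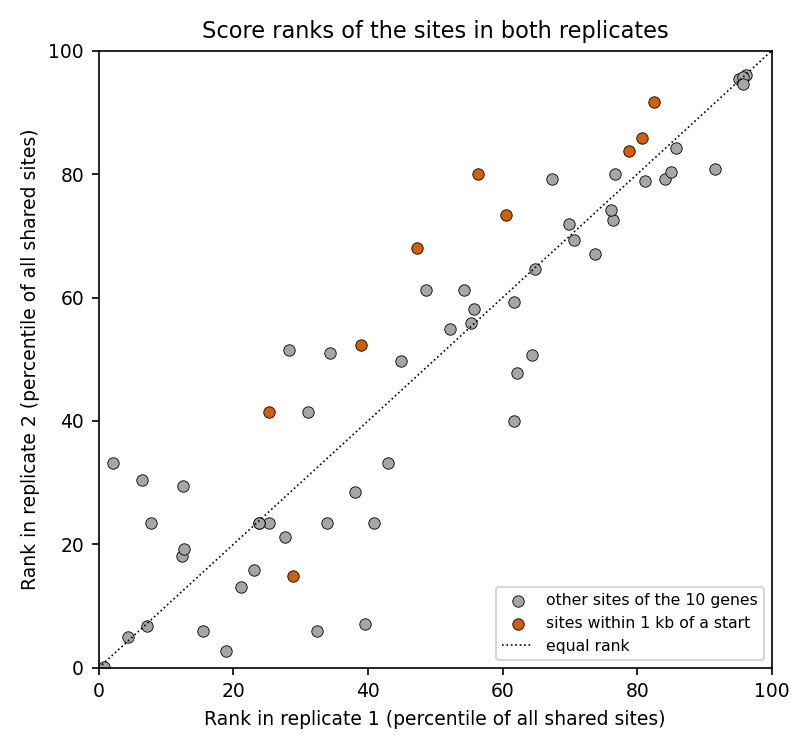
Percentile rank of each of the 62 sites among all shared sites in replicate 1 (x axis) and replicate 2 (y axis), with sites within 1 kb of a start in orange and the line of equal rank dotted. Of the 9 orange points, 8 lie above the line, and the grey points lie on both sides.

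Summits of a single replicate were common at these genes but mostly low. Replicate 1 had 142 summits assigned to the 10 genes by the same rule, of which 62 (43.7%) were paired, against 47.5% of its whole list. Replicate 2 had 77, of which the same 62 (80.5%) were paired, against 83.4%. The unpaired ones had a median score of 10.2 in replicate 1 and 7.09 in replicate 2. Efna5 had the most in replicate 1, with 20, followed by Epha4 with 17, and Efnb2 had the most in replicate 2, with 6. Besides the Efna1 pair, 7 pairs of summits lay 101 to 227 bp apart and so missed the limit, 3 at Efnb2, 2 at Epha2 and 1 each at Efna5 and Epha3.

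Of the 12 other ephrin and Eph genes, 6 had a site, with a median of 0.5 and 26 sites in all. Most were held by Efnb1, a B-type ephrin gene, and Ephb1, a B-type receptor gene, with 9 each, and by Epha1 with 4. The highest Efnb1 site had scores of 97.3 and 58.3 and the highest Ephb1 site 97.3 and 59.3, and Epha1 had one of 185.6 and 108.9, above any site of the 10 genes in both replicates. The 6 without a site were Efna2, Efnb3, Epha5, Epha6, Epha8 and Epha10, named after their values were seen. The 10 genes were chosen with earlier results of these data known, so the gap between 9 of 10 and 6 of 12 is a description.

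Genes that act with ephrins and Eph receptors in signalling also carried sites. Of 29 such signalling partners, 28 had one, against 60.7% of protein-coding genes. Their median was 5 sites, against 1 over all protein-coding genes, and gene length was not taken into account. The exception was Ngef, which encodes the exchange factor ephexin. The genes with the most sites were Sipa1l1, a regulator of the small G protein Rap, with 32, Fyn, a Src family kinase, with 23, and Kalrn with 21, of 219 over the list. The highest Fyn site had scores of 182.9 and 86.0 and the highest Sipa1l1 site 191.0 and 101.9. Of other genes that mark arteries or veins, 10 of 10 arterial and 5 of 6 venous genes had a site, against the same 60.7%. Their medians were 7.5 sites per arterial gene and 9.5 per venous gene. Efnb2 with 6 sites and Ephb4 with 3 lay under these medians, and gene length was again not taken into account. Both lay within the ranges, which were 1 to 19 sites in arterial and 0 to 17 in venous genes. Within 100 kb of Ephb4 lay 10 shared sites, of which the rule assigned 3 to it.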

How the data were processed

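FOXF1 binding was measured by chromatin immunoprecipitation and sequencing in 2 replicates of 1 group, and the input entered only through the peak calls. Per the submitters' processing notes, the authors used MACS2 and mm10. Their peak names show 1 list per replicate, with the input as control. The deposited score of each summit is a −log10 value of a p or q value, which of them is not stated. Aligner, MACS2 options and depth: not given in the sources used here. Chromatin was cut with micrococcal nuclease and sonicated, per the labels' protocols. Positions are 1-based.

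Summits on mitochondrial or other sequences outside the numbered and sex chromosomes (10 and 6) were set aside. Shared sites were placed midway between paired summits. Gene spans came from a RefSeq table of 49997 genes, and strands, starts and promoter sequences from RefSeq promoters of GRCm38.p6. A start can thus lie inside the printed span. That of Ephb2 was at 136836012, that of Ephb3 at 21204795 and that of Epha4 at 77515088, and distances from the start were taken from there. Scores take few distinct values (2940 in replicate 1 and 1927 in replicate 2), and tied scores got their mean rank. No test was run, since there is no contrast. Pairing and assignment were tested on simulated data. Genes named are the 10 members, each with its highest and, from 5 sites up, second highest site and the site nearest to the start, and from fixed lists the 3 genes with most sites. Other sites given by position were added. The members and lists were chosen with earlier results of these data known. Computations used Python 3.11.15, pandas 2.3.3 and scipy 1.17.1.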

Additional observations from a re-analysis of the deposited data

How the results depend on the processing

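With 50 or 200 bp between paired summits, a score of at least 10 in both replicates, a reach of 50 kb, or sites inside another protein-coding gene left out, the number of sites, the number of genes with one, the median and the share inside all stayed within 1.5 times or within the interval of the values given. With the 10000 highest summits of each replicate, 6 sites at 3 genes (Efnb2 3, Epha4 2, Epha3 1) were left, the median was 0 and 50% lay inside, and 16.6% of protein-coding genes had a site. Leaving out replicates, the total was 77 to 142 sites and the median 7 to 13.5: the higher values are those of replicate 1 alone, and all 10 genes then had a summit in either replicate. Without replicate 1, Efna1 had 2 and Efnb2 12, and without replicate 2 each gene but Epha7 had over 1.5 times its number of shared sites. Ephb2 kept 1 site at a score of at least 10. With a reach of 5 kb the median was 3 and 89.4% lay inside, Efnb2 and Ephb3 keeping 3 each, since sites farther away no longer count. With ends of noncoding genes counted too, 53 sites remained and 79.2% lay inside. With summits paired up to 2000 bp apart, added after the data were seen, the 10 genes all had a site. No paired analysis was possible because both replicates belong to 1 group and the input has no summit list used here.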
